A study of Mus musculus with 18 samples.

Results

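The 8 genes described here encode neurotrophin and GDNF family receptors and a neurotrophin ligand, among 47643 genes counted in each library of this series. They were chosen by name, not by their counts: Bdnf, Ngfr, Ntrk2, Ntrk3, Ret, Gfra1, Gfra2 and Gfra3. Gene symbols were matched to the Ensembl identifiers with GENCODE vM21, and all 8 had an entry. RNA sequencing was done on eDRG spot cultures, which are dorsal root ganglion neurons taken from CD-1 mouse embryos at E13.5 and plated as small spots. All cultures were treated with 5-fluorodeoxyuridine (FDU), a mitotic inhibitor that removes dividing cells. The groups were an uninjured control and injured cultures, in which the axons had been cut with a blade. Injured cultures were collected 1, 3, 8, 16 or 24 HPI (hours post injury), and each group had 3 libraries, 18 in all. The labels give DIV7 as the day of collection, whereas the methods give DIV7 as the day of injury. The model is of embryonic neurons of mixed subtypes without their target tissue. The labels do not say whether replicates came from separate cultures or animals, so p-values measure only the spread between these libraries.

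Neurotrophins are small secreted proteins that keep sensory neurons alive during development and tune their subtype and excitability. They bind Trk receptor tyrosine kinases with high selectivity, and all of them also bind the p75 neurotrophin receptor, which signals alone or beside a Trk receptor. GDNF family ligands bind a GPI-anchored GFRα co-receptor, and the complex then recruits and activates the receptor tyrosine kinase Ret. In dorsal root ganglia, these receptors mark and maintain different kinds of sensory neurons, and after nerve injury in adult animals several of them and their ligands are known to be regulated.

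Bdnf was the member that rose, and Ngfr was the member that fell at both late times. RefSeq promoter entries on GRCm38.p6 were at hand for 4 of the 8 genes, Bdnf, Ngfr, Ntrk2 and Gfra1, with 7 separate starts for Bdnf and 10 stretches in all. A stretch covered 250 bases before the start. Bdnf is transcribed from many separate first exons, and vM21 lists 11 Bdnf transcripts with 9 different starts. A count per gene adds all of them up, so the values below cannot be assigned to any of these promoters. The stretches were searched on both strands for the AP-1 motif TGANTCA, the cAMP response element (CRE) TGACGTCA, its short form TGACG and the GC box GGGCGG, and a CRE would also have counted as a short form. These letters were found in 6.75%, 1.55%, 17.8% and 32.7% of all 32851 promoter stretches in that table, in that order. AP-1 motifs are bound by Jun and Atf3, and CRE sites are the best known control element of Bdnf. The search took any base in the middle of TGANTCA, so a match to it need not be a site that Jun or Atf3 binds. Whether any of these factors acted on Bdnf in these cultures was not tested. Shown here are the Bdnf stretches with a match to TGANTCA or a short CRE, and the Ngfr stretch. They run 5′ to 3′ on the strand of the gene, with every match in capitals.
Bdnf, second start, chr2:109676782-109677031, plus strand: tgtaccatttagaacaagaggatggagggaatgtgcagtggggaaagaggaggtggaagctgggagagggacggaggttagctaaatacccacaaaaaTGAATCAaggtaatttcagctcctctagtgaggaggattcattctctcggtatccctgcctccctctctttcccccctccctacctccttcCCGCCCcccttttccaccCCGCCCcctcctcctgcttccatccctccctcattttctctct
Bdnf, later start, chr2:109692186-109692435, plus strand: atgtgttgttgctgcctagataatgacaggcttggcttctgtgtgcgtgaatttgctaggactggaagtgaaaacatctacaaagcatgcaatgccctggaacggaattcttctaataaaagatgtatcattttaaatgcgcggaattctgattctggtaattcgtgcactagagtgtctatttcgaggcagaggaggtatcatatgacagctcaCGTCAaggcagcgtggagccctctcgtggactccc
Ngfr, chr11:95587736-95587948, minus strand: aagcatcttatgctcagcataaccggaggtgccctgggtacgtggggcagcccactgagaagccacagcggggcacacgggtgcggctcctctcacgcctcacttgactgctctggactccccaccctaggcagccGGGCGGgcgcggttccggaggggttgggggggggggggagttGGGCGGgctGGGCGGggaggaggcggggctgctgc
The second Bdnf stretch held a match to TGANTCA, with A in the middle, that begins 152 bases before the start. Its GC boxes begin 61 and 43 bases before the start. The Bdnf stretch with the short CRE holds it 35 bases before its start. The Ngfr stretch was 70.4% G and C, and its GC boxes begin 114, 72, 63 and 16 bases before the RefSeq start. The 37 bases nearest that start, which hold the last of them, lie in an exon of vM21 and are left out, so that 213 bases are shown. Of the 10 stretches, 1 held a match to TGANTCA and none held a full CRE. A match of letters is not evidence that a factor binds there, and no match says only that these letters are not in this window.

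Depth on genes ranged from 9478891 to 23082327 counts per library, and between 25.2% and 33.2% of all counts fell on entries for reads assigned to no gene. Levels are given as CPM, the counts scaled to library size, after TMM normalization, and as RPKM, the same value per kilobase of exon, where genes are compared with each other. The test covered the 13771 genes that exceeded 1 CPM in 3 or more libraries, 7 of the 8 members among them, and Gfra2 was too low. Residual rRNA and mitochondrial genes took 27.05% of the counts in 16 HPI replicate 1 and between 15.8% and 24.9% in the other libraries. The sensory neuron markers Prph, Tubb3 and Avil were high in all libraries, with medians of 4094, 2638 and 729 CPM. Of 12 markers of satellite glia and Schwann cells, Mbp and S100b, which some neurons also express, held most of the counts, and the other 10 together had between 2.29 and 15.5 CPM in a library.

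Per length, the members spanned more than 3 orders of magnitude. In the control, Ngfr had 370 ± 52.6 RPKM (SD, n = 3), Ret 59.5 ± 6.71, Gfra1 14.6 ± 5.53 and Bdnf 3.97 ± 0.181. Ngfr encodes the p75 neurotrophin receptor and Ret the signalling receptor of the GDNF family. The means of these 4 genes kept this order in all 6 groups, and the ranges of neighbours in the order did not overlap in any group. That separation of ranges depends on the length and scaling used. In 16 HPI replicate 1, Gfra1 was below Bdnf per length of the longest transcript, at 7.56 and 8.05 RPKM. Without TMM, Gfra1 in that library, at 5.86 RPKM, was below Bdnf in 16 HPI replicate 3, at 6.22. Below these 4 genes in the control, Gfra3 had 1.03 ± 1.01 RPKM and Ntrk3 0.992 ± 0.301. Then came Gfra2 with 0.124 ± 0.0946 and Ntrk2 with 0.0833 ± 0.067. Gfra3 and Ntrk3 did not differ beyond their spread in any group, and neither did Gfra2 and Ntrk2. With the longest transcript as the length, Ntrk3 was 1.52 and Ntrk2 0.184 RPKM in the control, above Gfra3 and Gfra2, so the order within these pairs depends on the length used. Ngfr was 6.28 ± 1.20 times the level of Ret per length in the control.

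**Figure D1:**
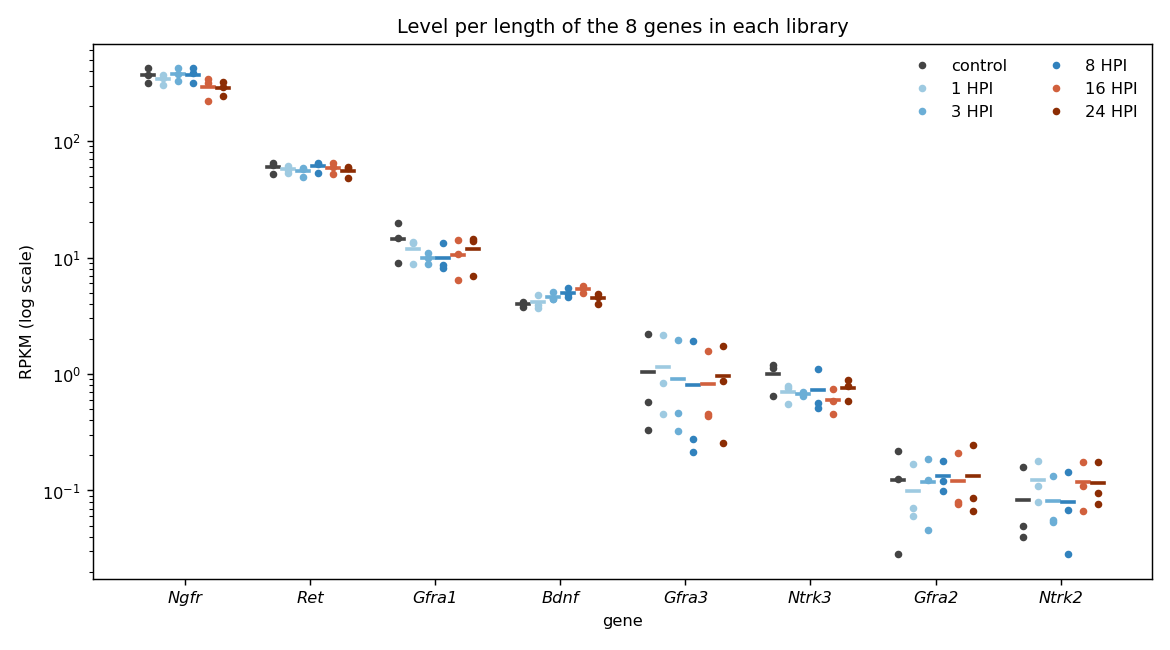
Level of the 8 genes per length, in RPKM on a log axis, in each library. Points are libraries, short bars are group means and colors are groups. Ngfr, Ret, Gfra1 and Bdnf stood in this order in every group, and Gfra3 with Ntrk3 and Gfra2 with Ntrk2 overlapped.

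Each time point was compared with the control to ask when these genes responded to axotomy. These comparisons share the same 3 control libraries and are therefore not independent of each other. A gene passed with an adjusted p under 0.05 by edgeR's quasi-likelihood test, and was called when it also changed over 2-fold. At 1 HPI, 0 of the 7 tested members passed, beside 0.276% of all tested genes. At 3 HPI, 0 of 7 passed as well, beside 0.189% of all genes. At these times, 2 and 4 of the 7 members had an unadjusted p under 0.05, as did 12.8% and 14.5% of all tested genes, and DESeq2's Wald test passed 0 at both. At 8 HPI, Bdnf alone passed, where 3.78% of all genes passed as higher and 3.9% as lower. At 16 HPI, Bdnf passed as higher and Ngfr, Ntrk3 and Gfra1 as lower, so 1 and 3 of 7, where 10.7% of all genes were higher and 11.5% lower. At 24 HPI, Ngfr alone passed, as lower, where 5.99% were higher and 9.03% lower. In either direction, 4 of 7 members passed at 16 HPI, beside 22.2% of all genes. The 7 members are few and were not tested as a set, so these counts are not read as setting them apart from other genes. None of the members was called at any time, and of all genes 0.029%, 0.029%, 0.537%, 1.49% and 0.821% were called at 1, 3, 8, 16 and 24 HPI. Over all time points together, Ngfr, Bdnf, Ntrk3 and Ntrk2 passed, 4 of 7, as did 30% of all genes.

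**Figure D2:**
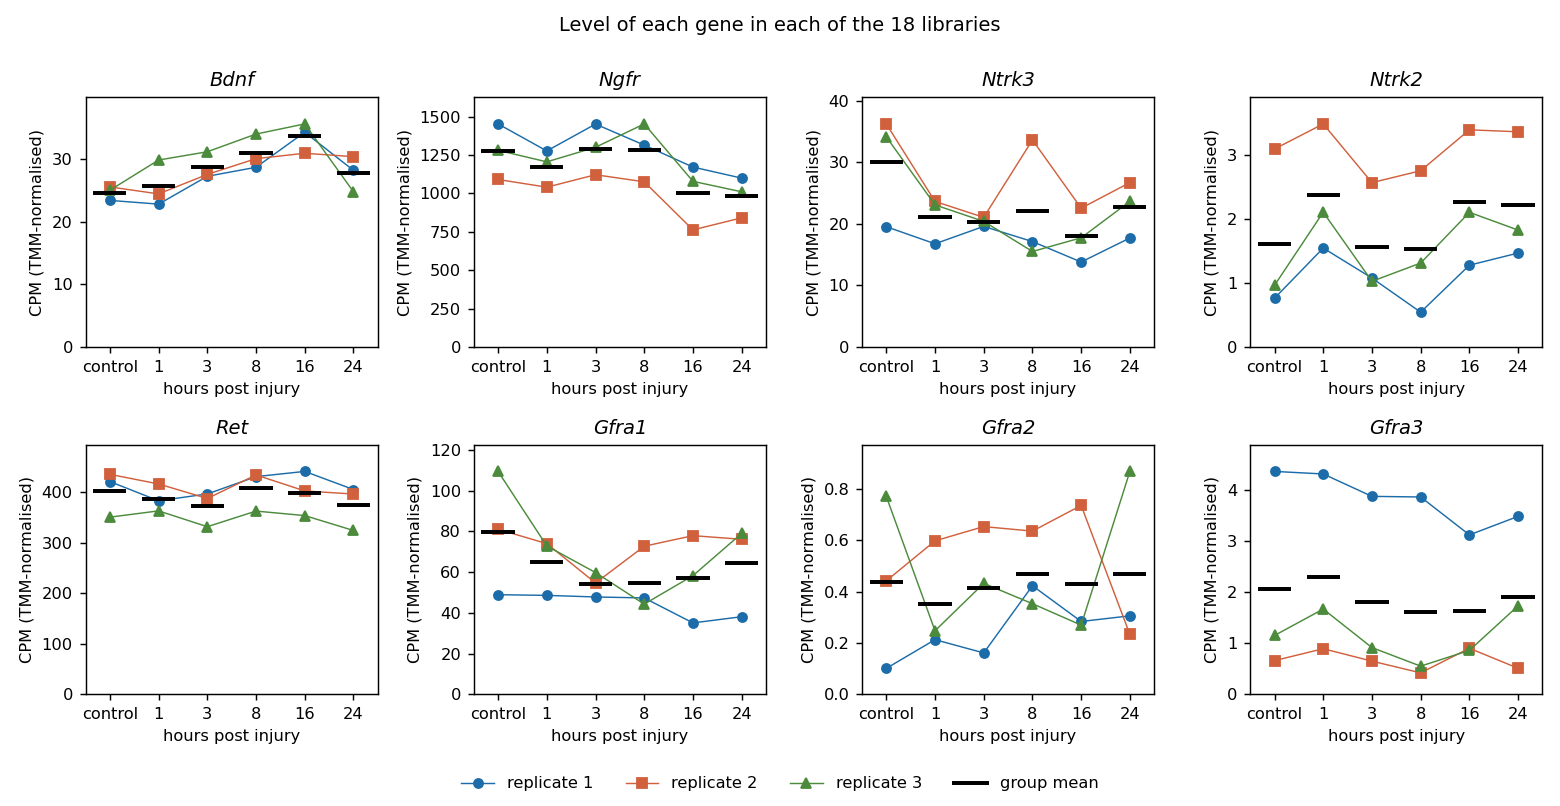
CPM of each of the 8 genes (vertical axis, from 0) in each library against hours post injury. Colored points joined by lines are libraries with the same replicate number and black bars are group means. The group mean of Bdnf was highest at 16 HPI, Ngfr was lower at 16 and 24 HPI in each replicate, and Gfra3 and Ntrk2 were ordered by replicate more than by time.

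**Figure D3:**
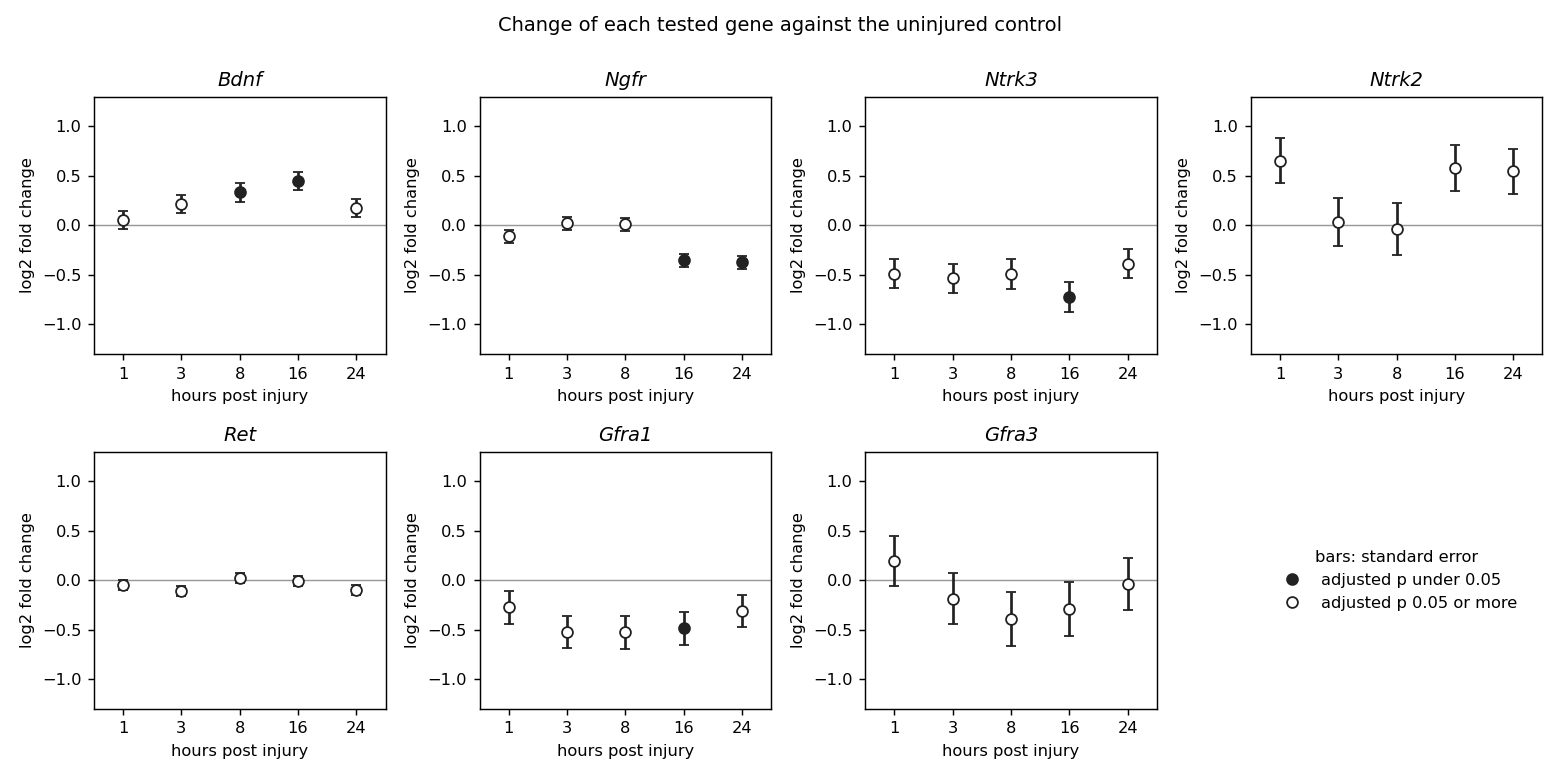
Log2 fold change of each tested member against the uninjured control, with its standard error, at each time point. Filled points passed the test. Bdnf passed at 8 and 16 HPI, Ngfr at 16 and 24 HPI, and Ntrk3 and Gfra1 at 16 HPI.

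Bdnf, brain-derived neurotrophic factor (ENSMUSG00000048482.14, chromosome 2 of GRCm38 from 109674700 to 109727007, plus strand), is a ligand that sensory neurons themselves make and release. The control libraries had 23.4, 25.6 and 25.1 CPM in replicates 1, 2 and 3. At 8 HPI, the values were 28.7, 30.1 and 34.0 CPM, and at 16 HPI they were 34.3, 31.0 and 35.7 CPM. All libraries of 8 and 16 HPI, and also those of 3 HPI at 27.3, 27.6 and 31.2 CPM, lay above all control libraries. Bdnf rose by 0.33 ± 0.09 on the log2 scale at 8 HPI (SE, adjusted p = 0.0304, edgeR) and by 0.45 ± 0.09 at 16 HPI (adjusted p = 0.000968, edgeR), which is 1.26-fold and 1.36-fold, and it was higher in all 3 replicates at both times. Earlier the difference was 0.06 ± 0.09 at 1 HPI and 0.22 ± 0.09 at 3 HPI, and neither passed. At 24 HPI the libraries had 28.2, 30.4 and 24.8 CPM, where the difference of 0.18 ± 0.09 from control did not pass. These 3 libraries were all below those of 16 HPI, and the step from 16 to 24 HPI was -0.27 ± 0.09 with an adjusted p of 0.0546 in edgeR's test. At 8 HPI, Bdnf no longer passed once any of the 6 libraries compared was left out, with log2 values of 0.28 to 0.36 and adjusted p from 0.0505 to 0.169. It also did not pass without the replicate term (adjusted p = 0.303, edgeR), whereas at 16 HPI it passed in all 13 alternatives, between 0.40 and 0.51. Bdnf at 24 HPI passed against control without 24 HPI replicate 3, and the step from 16 HPI passed without 16 HPI replicate 2 or 24 HPI replicate 2, at -0.33 and -0.37. Exons of Bdnf overlap 896 bases of the antisense gene Gm45346, which had no entry among the genes counted.

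Ngfr (ENSMUSG00000000120.6, chromosome 11 from 95568818 to 95587735, minus strand) encodes the p75 neurotrophin receptor, which binds all mature neurotrophins and, with sortilin, their uncleaved precursors. The control libraries had 1453, 1091 and 1281 CPM. At 8 HPI they had 1315, 1076 and 1453 CPM, at 16 HPI 1172, 763 and 1079 CPM, and at 24 HPI 1100, 841 and 1011 CPM. Replicate 2 was the lowest in all 6 groups, so the ranges of the late groups and the control overlapped although each replicate was lower than its own control at both late times. Ngfr fell by 0.36 ± 0.06 on the log2 scale at 16 HPI (adjusted p = 0.000362, edgeR) and by 0.37 ± 0.06 at 24 HPI (adjusted p = 0.00051, edgeR), to 0.782 and 0.772 times the control. Within replicates 1, 2 and 3, the log2 ratios were -0.31, -0.52 and -0.25 at 16 HPI and -0.40, -0.37 and -0.34 at 24 HPI. At 1, 3 and 8 HPI the differences were -0.11, 0.02 and 0.01, each with an SE of 0.06, and none passed. The step from 8 to 16 HPI was tested itself and was -0.36 ± 0.06 (adjusted p = 0.000629, edgeR), where 15.2% of all genes passed in either direction, and DESeq2's Wald test passed Ngfr in all 3 comparisons. Ngfr still passed in these 3 comparisons when any of the libraries compared was left out. Without the replicate term it did not (adjusted p = 0.28, 0.341 and 0.364, edgeR, at 16 HPI, 24 HPI and 16 against 8 HPI).

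Ngfr is made by sensory neurons and by glia, and in bulk RNA fewer cells of a type cannot be told apart from less RNA per cell. The summed level of 8 sensory neuron markers was between 7472 and 8285 CPM at 16 HPI and between 7967 and 8235 at 24 HPI, against 8608 to 9117 CPM in the control. Among them Tubb3, a neuronal tubulin, fell by 0.40 and 0.37 on the log2 scale at 16 and 24 HPI, and Rbfox3 by 0.29 and 0.34. The mean of Tubb3 went from 2955 CPM in the control to 2237 at 16 HPI and 2288 at 24 HPI, so Tubb3 held most of the fall in the sum. Prph, Avil, Snap25 and Calca did not pass at either time. Their estimates at 16 HPI were -0.01, -0.08, -0.09 and -0.18. Pou4f1 and Isl1, sensory neuron transcription factors, rose by 0.20 and 0.26 at 24 HPI. The summed level of the 12 glial markers was between 154 and 207 CPM at 16 HPI and between 164 and 212 at 24 HPI, against 166 to 249 in the control, and S100b fell by 0.33 and 0.26. The other 10 glial markers without Mbp and S100b had 2.66 to 8.17 CPM at 16 HPI and 3.08 to 15.5 at 24 HPI, against 2.29 to 9.49 in the control, and Mag was at no more than 3 counts in every library. Markers of other cell types were low but some were higher at these times. Dcn, a fibroblast matrix protein, rose by 2.07 and 2.22 on the log2 scale at 16 and 24 HPI, Cd68, a myeloid lysosomal protein, by 0.97 and 0.93, and Nes, an intermediate filament of progenitor cells, by 1.86 at 24 HPI. The 5 fibroblast markers summed to 3.91 to 11.6 CPM at 16 HPI and 3.13 to 9.41 at 24 HPI, against 1.84 to 5.97 in the control. The 4 myeloid markers summed to 5.24 to 5.77 and 5.21 to 6.82 CPM, against 3.37 to 4.88, and the 3 neural crest markers to 1.25 to 4.62 and 1.96 to 5.94, against 0.59 to 2.07. The 3 endothelial markers summed to 0.566 to 1.14 and 0.561 to 1.33 CPM, against 0.813 to 1.16. The part of cell makeup in the fall of Ngfr was not tested.

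Ntrk3 (ENSMUSG00000059146.12, chromosome 7 from 78175959 to 78738012, minus strand) encodes TrkC, the receptor of NT-3, which proprioceptors and some mechanoreceptors depend on. The control libraries had 19.5, 36.2 and 34.1 CPM, so replicate 1 was low before injury. At 16 HPI they had 13.8, 22.5 and 17.7 CPM, each below the control of the same replicate, while the 2 groups overlapped. Ntrk3 fell by 0.73 ± 0.15 on the log2 scale at 16 HPI (adjusted p = 0.00142, edgeR), to 0.605 times the control, the largest change among those of the 7 tested members that passed, and it still passed without each library in turn and in DESeq2. The estimates at 1, 3, 8 and 24 HPI were -0.49, -0.53, -0.50 and -0.39, each with an SE of 0.15, and did not pass, though at 8 HPI the adjusted p was 0.0502 in edgeR. At 8 HPI the libraries had 17.1, 33.6 and 15.5 CPM, so replicate 2 stayed near its control and replicate 3 was the lowest. Ntrk3 passed at 8 HPI without 8 HPI replicate 2 (-0.74) or control replicate 1 (-0.63), at 3 HPI without 3 HPI replicate 1 (-0.69) and at 24 HPI without control replicate 1 (-0.52), and from 8 to 16 HPI without 8 HPI replicate 3 (-0.49). Without the replicate term the adjusted p at 16 HPI was 0.169 in edgeR. Over all time points Ntrk3 passed (adjusted p = 0.0134, edgeR) except without the replicate term, control replicate 2 or control replicate 3. The steps from 8 to 16 HPI (-0.23 ± 0.16) and from 16 to 24 HPI (0.34 ± 0.15) did not pass, so the values do not show that the difference at 16 HPI is larger than that at its neighbours. Between 16 and 24 HPI, 0 of the 7 members passed, where 9.82% of all genes passed, and DESeq2 passed 0. At an unadjusted p under 0.05 there were 2 of 7 members and 23.8% of all genes.

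Of 6 markers of proprioceptors and mechanoreceptors, a list not limited to neurons that use TrkC, 4 were tested. At 16 HPI, 2 passed, where 22.2% of all genes passed in either direction. They were Etv1 and Maf, transcription factors of proprioceptors and mechanoreceptors, which fell by 0.47 and 0.35 on the log2 scale at 16 HPI. The summed level of the 6 markers was between 112 and 131 CPM at 16 HPI and between 127 and 172 in the control. Pvalb, the calcium buffer of proprioceptors, and Shox2, a transcription factor, did not pass against control, with estimates of -0.15 and 0.34 at 16 HPI, and Runx3 and Mafa, defining factors of these subtypes, were at no more than 2 and 3 counts in every library. Their part in the fall of Ntrk3 was not tested.

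Ntrk2 (ENSMUSG00000055254.14, chromosome 13 from 58806569 to 59133970, plus strand) encodes TrkB, the receptor of BDNF and NT-4. It was low, with 9 to 72 counts in a library. The control libraries had 0.762, 3.10 and 0.964 CPM, those of 1 HPI had 1.55, 3.49 and 2.11, and those of 16 HPI had 1.28, 3.40 and 2.11. Replicate 2 was the highest in all 6 groups, and every group overlapped the control. Ntrk2 passed over all time points together (adjusted p = 0.0355, edgeR) but at no single time, with estimates of 0.65 ± 0.23 for 1 HPI, 0.03 ± 0.24 for 3 HPI, -0.04 ± 0.26 for 8 HPI, 0.58 ± 0.23 for 16 HPI and 0.55 ± 0.23 for 24 HPI. It was higher in all 3 replicates at 1, 16 and 24 HPI. The result over all time points was lost in 10 of the 18 fits that left out a library, those without replicate 1 or 3 of the control, 1, 16 or 24 HPI and without replicate 2 or 3 of 3 HPI. It was also lost in DESeq2 and without the replicate term, and Ntrk2 was not tested under the filter of over 1 CPM in all 18 libraries. Without control replicate 2, Ntrk2 passed at 16 HPI at 0.92 (adjusted p = 0.0237, edgeR) and at 24 HPI at 0.89 (adjusted p = 0.0431, edgeR).

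Ret (ENSMUSG00000030110.13, chromosome 6 from 118151745 to 118197718, minus strand), the tyrosine kinase through which all GDNF family co-receptors signal, did not pass at any time. The control libraries had 421, 436 and 351 CPM, those of 16 HPI had 441, 403 and 354, and those of 24 HPI had 406, 397 and 325. Replicate 3 was the lowest in all 6 groups and all groups overlapped the control. The estimates against control lay between -0.11 and 0.03, each with an SE of 0.05, the smallest errors of the 7 members, and the adjusted p over all time points was 0.153 in edgeR. Ret did not pass in any of the alternatives.

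Gfra1 (ENSMUSG00000025089.15, chromosome 19 from 58235604 to 58455909, minus strand) encodes GFRα1, the co-receptor of GDNF. The control libraries had 48.9, 81.0 and 109 CPM, a wide spread before any injury. Those of 8 HPI had 47.4, 72.7 and 44.3 CPM and those of 16 HPI had 35.1, 77.9 and 58.3. Every library of 16 HPI was below the control of its own replicate, by 0.48, 0.06 and 0.91 on the log2 scale, and the groups overlapped. Gfra1 fell by 0.49 ± 0.17 at 16 HPI (adjusted p = 0.0394, edgeR), and the estimates at 1, 3, 8 and 24 HPI of -0.28, -0.52, -0.53 and -0.31 did not pass. This result rests on single libraries: it was lost without control replicate 3 (-0.25, adjusted p = 0.359), without 16 HPI replicate 1 (-0.40, adjusted p = 0.15) and without 16 HPI replicate 3 (-0.41, adjusted p = 0.16), all by edgeR. It was lost in DESeq2 (adjusted p = 0.136) and without the replicate term (adjusted p = 0.51, edgeR). Over all time points Gfra1 did not pass (adjusted p = 0.083, edgeR), and at 8 HPI it passed without 8 HPI replicate 1 (-0.69) or control replicate 1 (-0.64). Exons of Gfra1 overlap 416 bases of the antisense gene Gm16277, which had 6 counts in all libraries together.

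Gfra2 (ENSMUSG00000022103.9, chromosome 14 from 70890120 to 70979838, plus strand) and Gfra3 (ENSMUSG00000024366.7, chromosome 18 from 34689898 to 34720387, minus strand) encode the co-receptors of neurturin and artemin. Gfra2 had between 2 and 19 counts in a library, was over 1 CPM in none, and was at or under the limit of 3 counts in 2 libraries, a limit that covers counting error only. The group means lay between 0.353 and 0.471 CPM, and no difference was detectable at this depth. Gfra3 had 4.37, 0.664 and 1.16 CPM in the control libraries and 3.13, 0.906 and 0.864 CPM at 16 HPI. Replicate 1 was the highest in all 6 groups. None of its estimates passed, between -0.39 ± 0.28 at 8 HPI and 0.19 ± 0.25 at 1 HPI.

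The replicate number separated several members more than the injury did. For Gfra3, the mean over the 6 groups was 3.84, 0.676 and 1.15 CPM in replicates 1, 2 and 3, a 5.68-fold span, against 1.42-fold between the highest and lowest group means. For Ntrk2 the span was 2.80-fold between replicates and 1.55-fold between groups, and for Gfra2 it was 2.21-fold and 1.33-fold. Bdnf was the reverse, with 1.10-fold between replicates and 1.36-fold between groups. The labels do not say what a replicate number stands for.

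Across the 18 libraries, with the replicate removed, Ntrk3 and Gfra1 had the most similar patterns among the members, with a Pearson r of 0.823, and Bdnf and Gfra1 the most opposed, with -0.655. These are descriptions over libraries that share their control and, by number, their replicate. Among all tested genes, the closest to Bdnf were Cabp1 (r = 0.912), a neuronal calcium-binding protein, Dusp4 (0.893), a MAP kinase phosphatase, and Rhobtb1 (0.887). For Ngfr they were Lpcat3 (0.944), an enzyme of phospholipid remodelling, Camk4 (0.930), a calcium-dependent kinase, and Chrm5 (0.927), a muscarinic receptor. Those of Ntrk3 were Kcnh6 (0.906), a potassium channel, Colgalt2 (0.899) and Mcam (0.893), a cell adhesion molecule. For Gfra1 they were Plxnd1 (0.943), a semaphorin receptor, Usp11 (0.872) and Rnf207 (0.857).

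The other genes of both pathways were taken from lists of 66 ligands, receptors, adaptors, p75 partners and modulators, of which 58 were tested. At 1 and 3 HPI, 0 of 58 passed in edgeR's test, with 8 and 13 at an unadjusted p under 0.05, against the 12.8% and 14.5% of all genes given above. At 8 HPI, 3 passed as higher and 4 as lower, 12.1% in all against 7.68% of all tested genes. The counts for 16 HPI were 10 higher with 11 lower, 36.2% in all against 22.2%, and for 24 HPI 1 higher with 8 lower, 15.5% against 15%. None of those that passed changed over 2-fold, and the lists were not tested as sets. Other ligands were close to the limit of detection. Ntf5 had no more than 8 counts in any library, Gdnf no more than 10 and Pspn no more than 8, and Nrtn and Artn reached 20. Of 8 ligands, Ntf3, the ligand of TrkC, and Gdf15, a distant relative that signals through Ret, were tested, and 0 passed. At 16 HPI Ntf3 had an estimate of -1.09 (adjusted p = 0.0748, edgeR), on 4 to 50 counts in a library.

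Among 13 other receptors and co-receptors, all tested, 2 passed as higher and 5 as lower at 16 HPI, and 1 and 5 at 24 HPI. These counts, and those of the smaller lists that follow, stand beside 10.7% of all genes higher and 11.5% lower at 16 HPI and 5.99% and 9.03% at 24 HPI. Lingo1, which joins the p75 receptor in a complex for myelin inhibitors, had 157 ± 15.0 CPM in the control and 116 ± 14.9 at 16 HPI. It fell by 0.25, 0.44 and 0.33 on the log2 scale at 8, 16 and 24 HPI. Sorl1, a sorting receptor of the family of sortilin, had 28.4 ± 5.66 CPM in the control and 15.9 ± 0.949 at 16 HPI, and fell by 0.57, 0.83 and 0.72 at these times. Gfral, the co-receptor of Gdf15, rose at 16 HPI, and so did Sorcs2, a co-receptor of p75 for proneurotrophins, at 16 and 24 HPI. Of 25 adaptors and signalling proteins, 3 rose and 5 fell at 16 HPI. Dok4, a docking protein of Ret, fell by 0.23 at 16 HPI and rose by 0.37 from 16 to 24 HPI. Kidins220, a scaffold of Trk receptors and p75, fell by 0.17 at 16 HPI and by 0.23 at 24 HPI.

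Of 12 intracellular partners of p75, 2 rose and 1 fell at 16 HPI, and 0 passed at 24 HPI. Traf6, a ubiquitin ligase bound by p75, had 14.7 ± 0.446 CPM in the control, 19.7 ± 0.0983 at 16 HPI and 13.8 ± 2.19 at 24 HPI, and rose by 0.41 at 16 HPI only among the times tested against control. Zfp110, the p75 partner NRIF, rose by 0.28 at 8 HPI and 0.21 at 16 HPI. Of 8 modulators, 6 were tested, and 3 of them, Plat, Furin and Lrig1, rose at 16 HPI. Plat, tissue plasminogen activator, leads through plasmin to the cleavage of proBDNF outside the cell, and Furin cleaves it inside the cell. Plat had 27.4 ± 1.90 CPM in the control, 43.8 ± 9.43 at 8 HPI and 36.0 ± 4.80 at 16 HPI, and rose by 0.66 ± 0.08 and 0.39 ± 0.08 (adjusted p = 2.36e-05 and 0.00129, edgeR). Furin had 13.2 ± 2.49 CPM in the control and 19.1 ± 1.84 at 16 HPI, and rose by 0.52 ± 0.10 (adjusted p = 0.000384, edgeR). From 16 to 24 HPI, Plat, Furin and also Lrig1 passed as lower, where 9.82% of all genes passed in either direction. Plat fell by 0.46 and Furin by 0.54, while Bdnf had -0.27 and did not pass. From 8 to 16 HPI, Plat fell by 0.27 and Furin rose by 0.74, while Bdnf had 0.12 and did not pass. Whether these changes are related was not tested. Beside these genes, a list of 4 injury markers was mixed. Atf3 rose by 2.29 and 3.16 on the log2 scale at 8 and 16 HPI, and Jun by 1.03 and 0.80. From 16 to 24 HPI, Atf3 fell by 1.97 and Jun by 0.86. Gal did not pass in any comparison, with estimates of -0.02, -0.72 and -0.51 at 8, 16 and 24 HPI. Sprr1a had no more than 2 counts in any library.

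**Figure D4:**
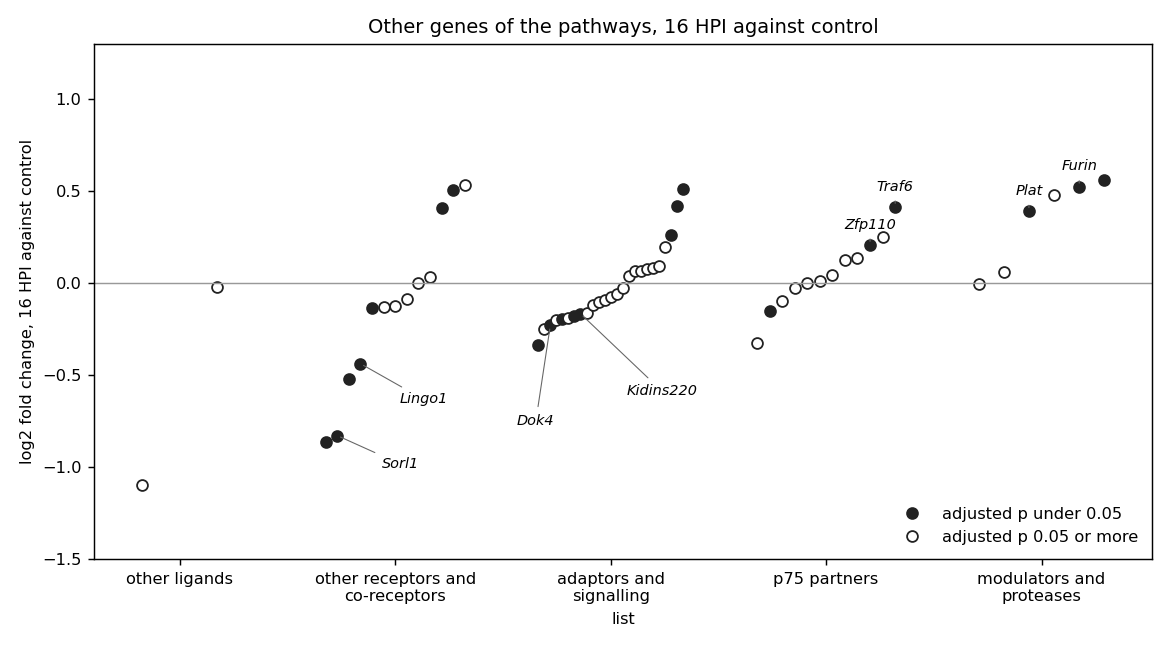
Log2 fold change at 16 HPI against control of the 58 tested genes of the 5 lists of other pathway genes. Each point is a gene, filled where it passed the test, and the genes of the naming rule carry a label. Plat and Furin lie above 0 and Lingo1 and Sorl1 below it.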

How the data were processed

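RNA sequencing was done on 18 eDRG spot culture libraries, 3 in each of 6 groups. According to the paper's methods, reads were trimmed with cutadapt, aligned to mm10 with STAR and counted with featureCounts, whereas the submitters' processing notes name HTSeq. Per the labels, libraries were rRNA-depleted and made with SMARTer. Whether counting used strand is not given in the sources used here. The authors deposited raw counts per gene, without normalization or batch correction, in 47643 genes and 5 closing entries, which were left out of library sizes.

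GENCODE vM21 (GRCm38) named 47224 identifiers and gave exon lengths. Promoters came from RefSeq on GRCm38.p6. With edgeR 4.0.16 in R 4.3.3, the counts of genes that exceeded 1 CPM in 3 or more libraries were normalized by TMM and fitted with time point and replicate number in 1 quasi-likelihood model over all libraries, two-sided, with Benjamini-Hochberg adjustment over 13771 genes. The SE of a log2 fold change is its size over the root of the F statistic. The paper corrected for batch, and same-numbered libraries deviated together from their group means (r of 0.484 to 0.765, 45 pairs; mean of -0.308 for other pairs), so the number was kept as a block. Log2 CPM for correlations had a prior count of 2.

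All 8 members were named, and of each pathway list the called genes or, with none, the 2 passing genes with the lowest p over all time points. Genes named as passing beside a count of 5 or fewer, Ntf3, Gdf15 and the markers fall outside this rule and were chosen after their values were seen. For members that passed, the 3 genes with the highest Pearson r were named. The members and lists were chosen with earlier results of these data known. The method was tested on simulated data with changes larger than those of any tested member. Detection of changes as small as theirs was not tested there. Alternatives were DESeq2 1.42.0, its size factors, other filters, no replicate block, the 2 compared groups alone, rRNA and mitochondrial genes left out, and each library left out. Detection limits (3 counts) include counting error alone.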

Additional observations from a re-analysis of the deposited data

Results flagged for a closer look

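Ngfr differed in its response between time points by a test of the difference itself: the step from 8 to 16 HPI was -0.36 on the log2 scale (adjusted p = 0.000629, edgeR's quasi-likelihood test), with 0.01 at 8 HPI and -0.36 at 16 HPI against the same control libraries. It was lower in 3 of 3 replicates. Over 13 alternatives the step lay between -0.43 and -0.29, and it did not pass without the replicate term. Groups had 3 libraries, too few for the check of single samples that stand apart.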

How the results depend on the processing

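No member's log2 fold change that passed turned its direction under any alternative. Ngfr at 16 HPI, at 24 HPI and from 8 to 16 HPI, and Ntrk3 at 16 HPI, passed under all alternatives except the fit without the replicate block, and Bdnf at 16 HPI passed in all of them. Without the replicate block, 0, 1, 61, 706 and 153 genes passed at 1, 3, 8, 16 and 24 HPI, 207 from 8 to 16 HPI, 111 from 16 to 24 HPI and 535 over all time points, against 38, 26, 1058, 3055, 2068, 2090, 1352 and 4128 with it. The members passing without the block were 0 at 8 HPI, 1 at 16 HPI (Bdnf), 0 at 24 HPI, 0 from 8 to 16 HPI and 0 over all time points. With the 2 compared groups alone, 448 genes and 1 member (Ntrk3) passed at 1 HPI, 570 genes at 8 HPI, 3 members (Gfra1, Ngfr and Ntrk3) at 24 HPI and 1 member (Ntrk3) from 16 to 24 HPI. DESeq2's Wald test passed 136 and 149 genes at 1 and 3 HPI, and the filter of at least 10 counts over all libraries 65 and 43. At 8 HPI, the members passing became 2 (Bdnf and Ntrk3) with DESeq2's size factors or with over 1 CPM in all 18 libraries, and 3 (with Gfra1) with the filter of at least 10 counts or without rRNA and mitochondrial genes. The cause of these differences was not tested.

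Without each library in turn, the genes passing lay between 3 and 65 at 1 HPI, 1 and 148 at 3 HPI, 447 and 811 at 8 HPI, 2272 and 2738 at 16 HPI, 1237 and 1554 at 24 HPI, 1357 and 1744 from 8 to 16 HPI, 621 and 1295 from 16 to 24 HPI, and 3327 and 4083 over all time points. The members passing were 0 at 1 HPI, 0 to 1 at 3 HPI, 0 to 2 at 8 HPI, 3 to 5 at 16 HPI, 1 to 2 at 24 HPI, 1 to 2 from 8 to 16 HPI, 0 to 1 from 16 to 24 HPI and 2 to 5 over all time points, where the lowest value came without control replicate 3. Ntrk2, Gfra3 and Gfra2 had few counts, which limits what could be detected for them.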
